A study of Sus scrofa with 6 samples.

Results

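The proteasome is the barrel-shaped protease that degrades ubiquitin-tagged proteins, and antigen presentation by MHC molecules draws on the peptides it releases. All probe sets of a porcine Affymetrix array were taken whose single platform gene symbol begins with PSMA, PSMB, PSMC, PSMD, PSME or SLA-, or is TAP1, TAP2, TAPBP, B2M or CD74. SLA stands for swine leukocyte antigen, the MHC of the pig. This gave 73 of 23999 probe sets, which belonged to 53 genes. Where a gene had several probe sets, as 9 of the 53 did, the one with the highest mean signal over the arrays stood for it. No probe set carried PSMB9, TAP2, SLA-1, PSMC4, PSMD7 or PSMD9 as its single symbol, and these genes were not analysed here.

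RNA came from sow ovary and from uterine tissue labelled myometrium, the smooth muscle wall of the uterus, at 3 stages: non-pregnant, early pregnant and late pregnant. Each of the 6 combinations of tissue and stage was measured on 1 array, so no tissue and stage had a replicate. The design text counts 9 pigs, 3 per stage. Breed, age, parity and day of pregnancy are not given in the labels, no treatment is named, and the sources do not say if each array held RNA from 1 sow or from a pool. Values are MAS5 signals on a linear scale, in the authors' arbitrary units, and are given below in the order non-pregnant, early pregnant, late pregnant. A probe set's signal also depends on its probes, so levels are compared between arrays for one gene and never between genes.

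The catalytic core, called 20S, is 4 stacked rings: outer rings of alpha subunits (PSMA genes) and inner rings of beta subunits (PSMB genes), of which PSMB5, PSMB6 and PSMB7 are the proteolytic ones. The 19S cap of ATPases (PSMC) and other subunits (PSMD) recognises and unfolds tagged proteins. In immune cells, and in other cells exposed to interferon gamma, PSMB8, PSMB9 and PSMB10 replace the constitutive proteolytic subunits to form the immunoproteasome. Interferon gamma also induces PSME1 and PSME2, the alpha and beta chains of the PA28 activator. TAP1 and TAP2 carry peptides into the endoplasmic reticulum, where TAPBP, or tapasin, helps load them on class I heavy chains paired with B2M. Class II molecules, held by antigen-presenting cells, take peptides in endosomes after their invariant chain, CD74, is removed. Class I genes are known from most nucleated cells, and class II and immunoproteasome genes from leukocytes, though not from them alone.

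The 53 genes comprised 7 alpha subunits, 7 constitutive beta subunits, 2 immunoproteasome beta subunits, 5 ATPases and 12 PSMD genes. The PSMD genes are other 19S subunits and assembly chaperones of the cap, PSMD5 and PSMD10. They also comprised the 2 PA28 chains, 2 other activators (PSME3 and PSME4), 8 genes of the class I pathway and 8 of the class II pathway. The immune subunits measured were thus 4 of the 5 named in the rule, PSMB8, PSMB10, PSME1 and PSME2, and they were set against 33 constitutive subunits. The constitutive class held all other PSMA to PSME genes, and so also the assembly chaperones, PSME3 and PSME4. Of the 53 genes, 52 lay above a detection floor of 81.7 on every array. That floor is the 40th percentile of all signals, and lower signals were set to it ahead of the log2 step. SLA-7, the exception, was under the floor on both late pregnant arrays.

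The share of all probe sets over the floor ranged from 57.4% to 61.6% by array. Correlations were taken on the log2 scale over the probe sets above the floor on every array. Among ovary arrays they were 0.953 to 0.967, and among arrays labelled myometrium 0.835 to 0.928 (Pearson's r across probe sets, which are not independent). The lowest of these was that of the non-pregnant with the late pregnant array labelled myometrium. The non-pregnant one correlated with the ovary arrays at 0.861 to 0.874, and the late pregnant one at 0.831 to 0.835. The non-pregnant and late pregnant arrays of that label thus stood apart from each other across these probe sets. The markers did not match the myometrium label. All 5 epithelial markers listed were higher on those arrays (limma adjusted p under 0.05) and summed to 30083 to 41145 there, against 589 to 922 in ovary. Of 5 smooth muscle genes 0 passed, and their summed signal was 10009 to 18240 against 22775 to 32496 in ovary. STAR, the cholesterol carrier of steroid-making cells, read 13.2, 5573 and 6907 on the arrays labelled myometrium, the first under the floor. Spiked hybridisation controls, relative to their mean over arrays, had a log2 value of 0.44 for non-pregnant ovary and of -0.16 to 0.07 elsewhere. The 3' to 5' GAPDH signal ratio was 2.33, 1.99 and 1.51 in ovary, and in the tissue labelled myometrium it was 1.52, 1.7 and 1.53. The same ratio for actin was 3.38, 2.56 and 3.22 in ovary and 3.49, 2.64 and 2.76 in the tissue labelled myometrium. Its highest value was thus on the non-pregnant array labelled myometrium.

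The stages within a tissue were compared first, with 1 array a side and therefore with no test, counting genes at 2-fold or more. On the arrays labelled myometrium, the immune subunits and most presentation genes read lower in late pregnancy than in the non-pregnant tissue. The constitutive subunits read lower by less. Of these 28 of 33 were lower, where 9224 of 16013 measured probe sets were. The constitutive median log2 ratio was -0.38, against -0.14 over all measured probe sets. Among the 53 genes, 16 were at least 2-fold lower on the late pregnant array and 1 was at least 2-fold higher, where 12.6% of all measured probe sets were that much lower and 10.9% that much higher. The 16 were all 4 immune subunits, 2 of 33 constitutive subunits, 4 of 8 class I genes and 6 of 8 class II genes. In bulk tissue, fewer cells of a type and less RNA per cell cannot be told apart. Stage and array cannot be told apart either, and the arrays compared here had the lowest correlation among those labelled myometrium. That correlation does not say which of them stood apart.

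PSMB8, the immunoproteasome counterpart of PSMB5, read 1929.9, 851 and 391.5 on the arrays labelled myometrium. In ovary it read 887, 779 and 511. It was highest on the non-pregnant array of each tissue and lowest on the late pregnant one, 4.93-fold apart on the arrays labelled myometrium and 1.74-fold apart in ovary. PSMB10, the counterpart of PSMB7, read 1318, 637 and 341 there, a 3.86-fold difference from non-pregnant to late pregnant. In ovary PSMB10 read 875.5, 621 and 682, so its lowest ovary array was the early pregnant one.

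The PA28 chains followed the same order on the arrays labelled myometrium. PSME1 read 4983, 1917 and 1081, and the late pregnant array was 4.61-fold lower than the non-pregnant one. In ovary PSME1 read 3289, 3298 and 2186, level between the first stages and 1.5-fold lower in late pregnancy than before it. PSME2, whose product forms a ring with that of PSME1, read 4243, 2377 and 1403 on the arrays labelled myometrium, a 3.02-fold difference. In ovary PSME2 read 4257, 2141 and 2353.5, and its 1.99-fold difference from non-pregnant to early pregnant was just short of the 2-fold limit.

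The constitutive counterparts differed less. PSMB5 read 2271, 1989.6 and 1804.5 on the arrays labelled myometrium and 2321, 1646 and 2502 in ovary. PSMB6 read 4495, 3183 and 2756 on the former and 4813.5, 3467 and 4534 in ovary. PSMB7 read 4441, 4186 and 3509 on the former and 5676.5, 4049.5 and 4248 in ovary. From non-pregnant to late pregnant on the arrays labelled myometrium these 3 genes were 1.26-fold, 1.63-fold and 1.27-fold lower, whereas PSMB8 and PSMB10 were 4.93-fold and 3.86-fold lower.

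PSME3, which encodes a nuclear activator built without PSME1 or PSME2, read 807, 652 and 438 on the arrays labelled myometrium and 712, 545 and 664 in ovary. It was 1.84-fold lower in late pregnancy in the former. PSME4, which encodes the activator PA200, went the other way, with 440.4, 528.5 and 572 on the arrays labelled myometrium. In ovary PSME4 read 374, 319 and 362.

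**Figure D1:**
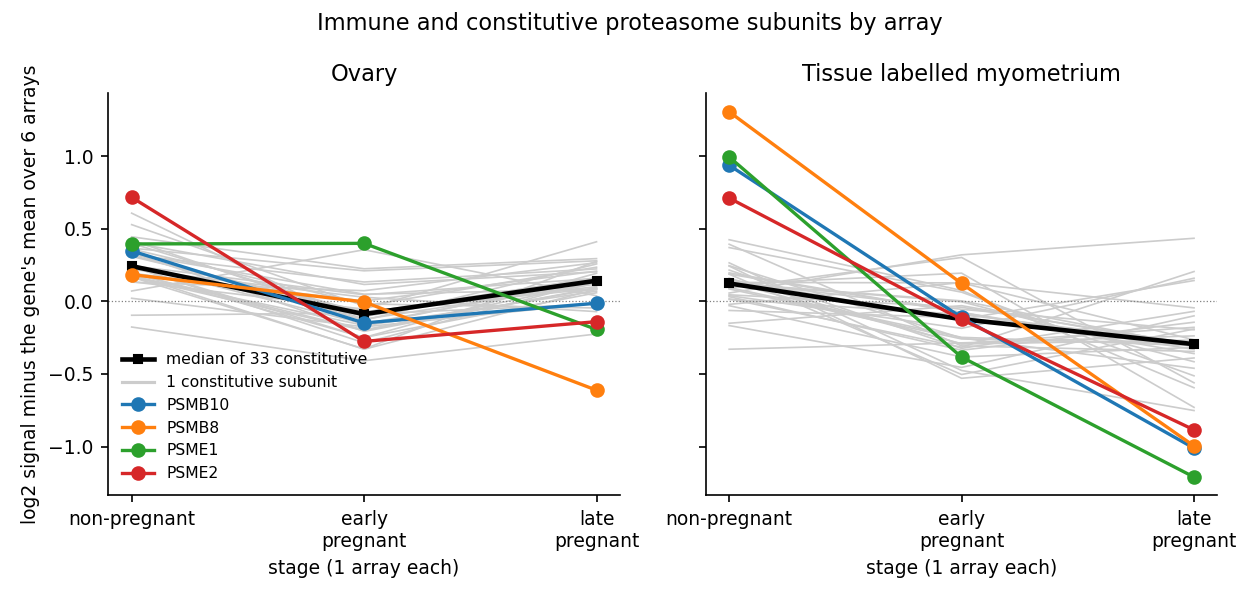
Signal of each proteasome subunit on each of the 6 arrays, as log2 signal minus the gene's own mean over the arrays, with stage on the horizontal axis and 1 panel per tissue. Coloured points are the 4 immune subunits, grey lines the 33 constitutive subunits and black squares their median. On the arrays labelled myometrium the immune subunits start above the grey lines and end below all of them, while in ovary both overlap.

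Taking each gene relative to its own mean over the arrays, the median of the immune subunits minus that of the constitutive subunits was 0.84, 0.01 and -0.71 log2 units on the arrays labelled myometrium. In ovary it was 0.13, 0.01 and -0.31. The immune subunits thus stood highest against the constitutive ones on the non-pregnant array labelled myometrium and lowest on the late pregnant one, and the ovary arrays lay in between.

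From non-pregnant to late pregnant on the arrays labelled myometrium, the log2 ratio of the immune subunits ran from -2.30 to -1.60 with a median of -2.08. That of the constitutive subunits ran from -1.02 to 0.38 with a median of -0.38, so 0 of 33 lay below the highest immune ratio. The medians differed by -1.70, or 3.25-fold. The median over all measured probe sets was -0.14. From non-pregnant to early pregnant the medians were -1.11 and -0.27, and again 0 of 33 constitutive subunits lay below the highest immune ratio. From early to late pregnant they were -0.86 and -0.14, and 2 of 33 did. The highest immune ratio was -1.60, -0.84 and -0.76 in these comparisons. The share of all measured probe sets below those ratios was not counted. At 2-fold or more lower, that share was 12.6%, 10.3% and 5.62%.

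In ovary the same difference was smaller and the classes overlapped. From non-pregnant to late pregnant the medians were -0.69 for immune and -0.10 for constitutive subunits, 1.51-fold apart, and 3 of 33 constitutive subunits lay below the highest immune ratio. From early to late pregnant they were -0.23 and 0.24, with 10 of 33 below. From non-pregnant to early pregnant they were -0.34 and -0.37, with 31 of 33 below, so the classes could not be told from each other. The share of all measured probe sets below the highest immune ratio was not counted here either. These comparisons share arrays and are not independent of each other. A test of whether the stage ratio differs between tissues cannot be made with 1 array per tissue and stage.

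By subunit class, the alpha ring had a median log2 ratio of -0.54 from non-pregnant to late pregnant on the arrays labelled myometrium, and the constitutive beta ring of -0.52. The ATPases of the 19S cap had -0.28 and the PSMD genes -0.20. PSMA5, an alpha subunit, and PSMB4, a non-catalytic beta subunit, were the constitutive subunits beyond 2-fold. PSMA5 read 3232, 2539 and 1595 on the arrays labelled myometrium and 2845, 1977 and 2659.7 in ovary. PSMB4 read 7347, 4395 and 3630.5 on the former and 8317, 7142 and 7494 in ovary. Both were only just past the limit, at 2.03-fold and 2.02-fold.

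**Figure D2:**
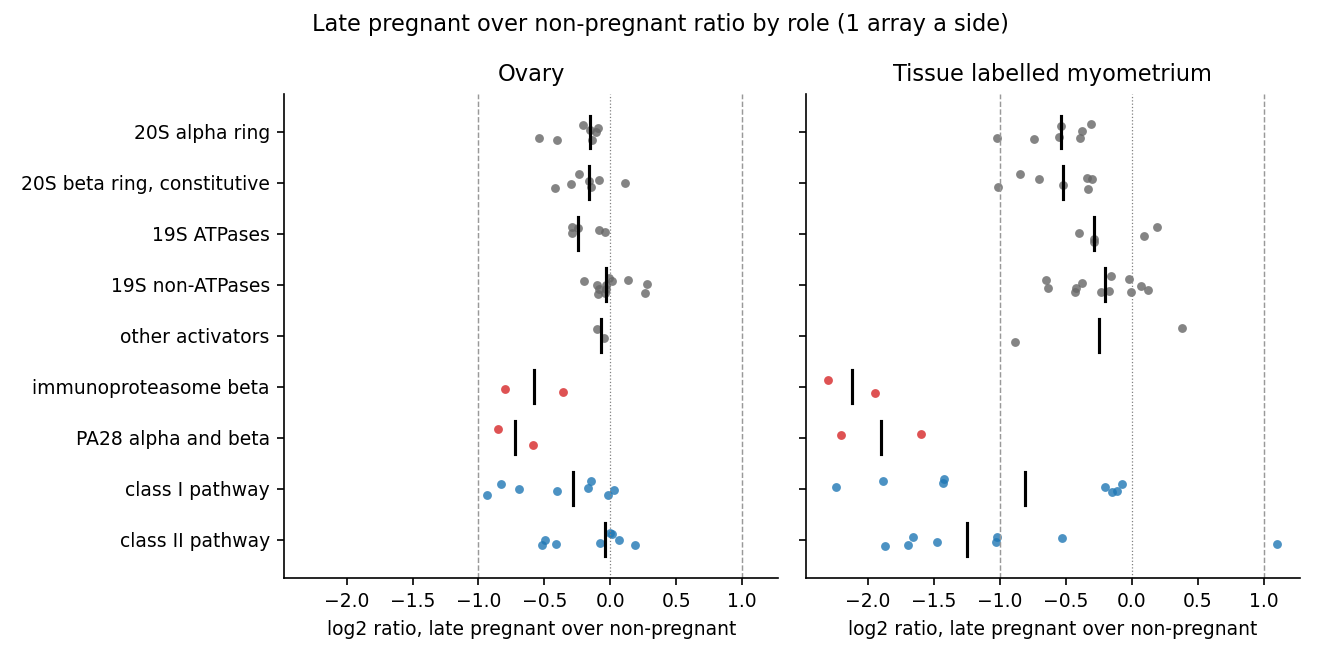
Log2 ratio of the late pregnant over the non-pregnant array for each of the 53 genes by role, 1 point a gene, in ovary and in tissue labelled myometrium, with 1 array a side. Black bars are medians and dashed lines mark 2-fold. In the tissue labelled myometrium the immune subunits lie between -2.30 and -1.60 and the constitutive classes between -1.02 and 0.38, and in ovary no gene passes a dashed line.

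Among the class I heavy chains, SLA-2 read 12922.5, 8450.4 and 4783 on the arrays labelled myometrium, and SLA-3 read 10259, 4067.5 and 2169. In ovary SLA-2 read 10186.5, 10612 and 9063.5, and SLA-3 read 7367, 5743 and 6673. Both were lowest on the late pregnant array labelled myometrium, 2.7-fold and 4.73-fold under the non-pregnant one, and in ovary they varied by less than 1.5-fold. These genes are nearly identical, so the split between them is uncertain. The platform's probe set suffixes also mark that those of SLA-2 and SLA-8 can bind transcripts of more than 1 gene. A probe set annotated to both SLA-2 and SLA-3 read 14432, 8058 and 4573 on the arrays labelled myometrium and 9778.5, 11734 and 9466 in ovary.

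The non-classical class I genes differed among themselves. SLA-6 read 1524, 744 and 568 on the arrays labelled myometrium and 949, 863 and 718 in ovary, and was 2.68-fold lower in late pregnancy in the former. SLA-8 was highest on the early pregnant array of each tissue, with 2859, 3724 and 2484 on the arrays labelled myometrium and 2063, 2981 and 2099 in ovary. SLA-7 was near the floor, with 86, 88.9 and 62.8 on the arrays labelled myometrium and 156.5, 101 and 66.2 in ovary, and its ratios are bounded by the floor.

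TAP1, a chain of the peptide transporter, read 1958, 1051 and 530.3 on the arrays labelled myometrium and 1115, 1049.9 and 628 in ovary. It was 3.69-fold lower in late pregnancy than in non-pregnant tissue on the former and 1.78-fold lower in ovary. In the RefSeq order of genes on the pig assembly Sscrofa11.1, PSMB8 lies between TAP2 and TAP1, and TAP1 lies between PSMB8 and PSMB9. PSME2 and PSME1 have EMC9 between them. TAPBP, whose product bridges TAP to class I molecules, read 1017, 794.5 and 942.5 on the arrays labelled myometrium and 661, 716 and 653 in ovary, with no order by stage in either tissue.

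B2M, the light chain of all class I molecules, read 31724, 28762 and 28615 on its brightest probe set on the arrays labelled myometrium, a 1.11-fold difference. In ovary it read 44566, 33272 and 27639, a 1.61-fold difference from non-pregnant to late pregnant. It has 9 probe sets, and they did not run together. Another bright one read 15479, 24581 and 29892 on the arrays labelled myometrium, the opposite order, and 17970.5, 14419 and 10159 in ovary. No direction is therefore given for B2M.

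Most class II genes were lower at each later stage on the arrays labelled myometrium, and in ovary they were more nearly level. SLA-DRA, an alpha chain, read 4933, 3379.6 and 1520.3 on the former and 4871, 4198 and 3409 in ovary. SLA-DRB1, its beta chain, read 2239, 1152 and 709.7 on the former and 1729, 1549 and 1739.5 in ovary. From non-pregnant to late pregnant they were 3.24-fold and 3.15-fold lower on the arrays labelled myometrium, and 1.43-fold and 1.01-fold apart in ovary.

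The DQ chains gave the same picture. SLA-DQA1 read 3296, 1874 and 902 on the arrays labelled myometrium, a 3.66-fold difference, against 1976, 3022 and 2253 in ovary. SLA-DQB1 read 3469, 2090.1 and 1246 on the former, against 3359, 3279 and 3174 in ovary.

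CD74, the invariant chain, read 1753, 1087 and 863.5 on the arrays labelled myometrium, a 2.03-fold difference, and 1291, 1419 and 1352.5 in ovary. SLA-DMB, a chain of the peptide exchange factor DM, read 732, 687 and 358.5 on the former and 766, 752 and 576 in ovary. SLA-DOA, a chain of the DM inhibitor DO, was close to the floor on all arrays, with 144, 111 and 99.8 on the arrays labelled myometrium and 93.3, 152.5 and 92.9 in ovary.

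SLA-DMA, the other DM chain, was the single gene of the 53 at 2-fold or more higher in a later stage. Its brightest probe set read 1896, 2289.8 and 4072 on the arrays labelled myometrium, 2.15-fold higher in late pregnancy than in non-pregnant tissue, and 8498, 6761 and 6017.5 in ovary. Its other probe set read 705, 338 and 182 on the arrays labelled myometrium and 519.8, 529.7 and 366 in ovary. The probe sets ran in opposite directions on the arrays labelled myometrium, so the direction for SLA-DMA rests on the choice of probe set.

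**Figure D3:**
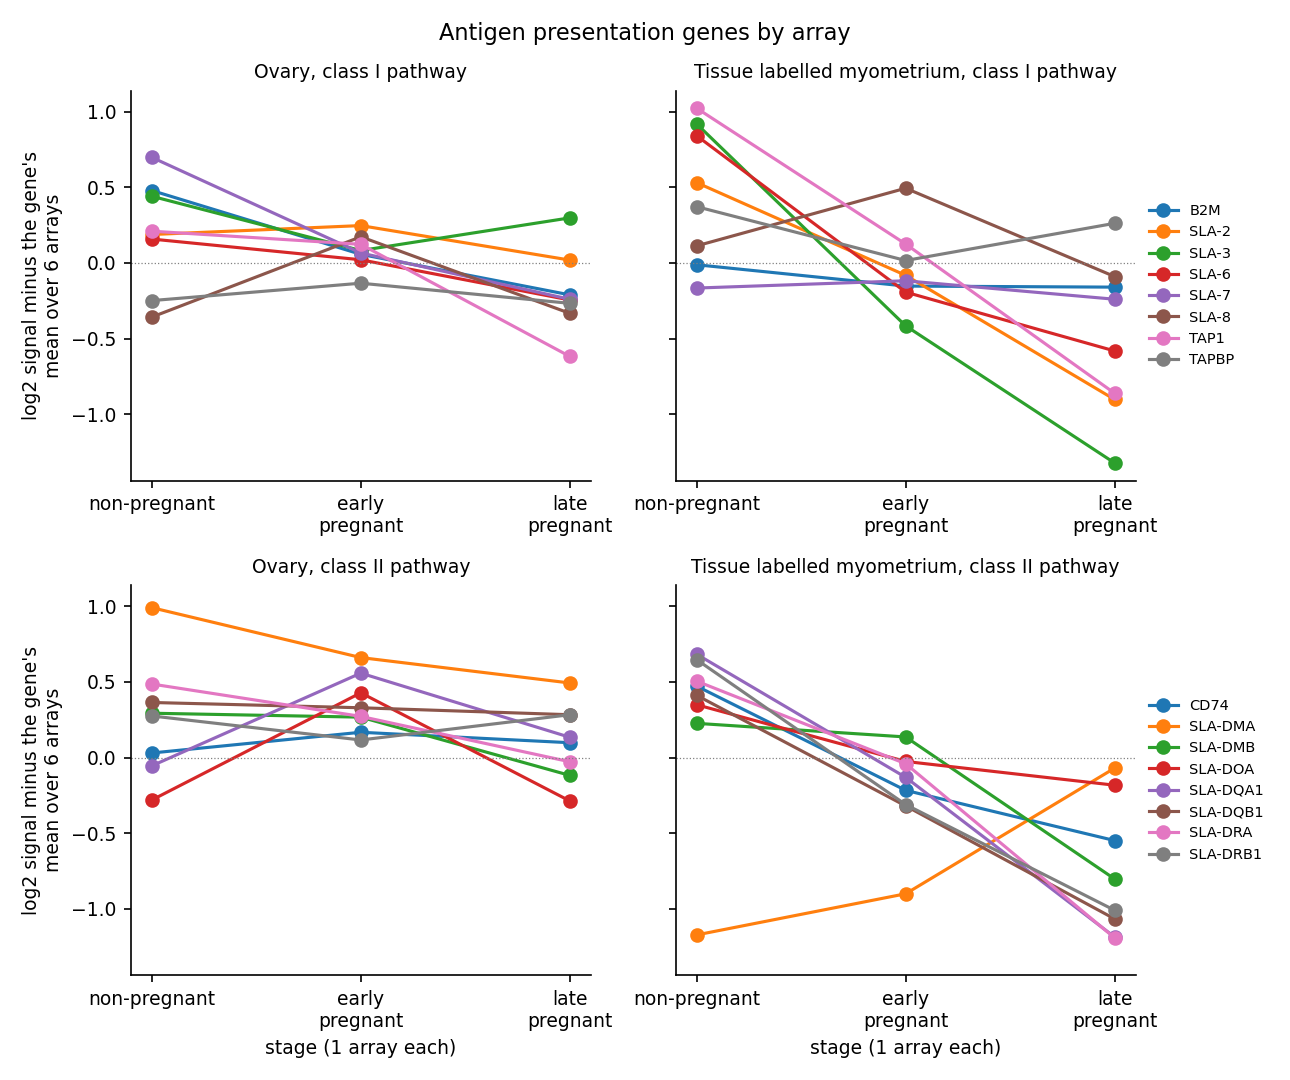
Signal of the 8 class I genes (upper panels) and the 8 class II genes (lower panels) on each array, as log2 signal minus the gene's own mean over the 6 arrays, with stage on the horizontal axis. In the tissue labelled myometrium TAP1, SLA-2, SLA-3 and SLA-6 and all class II genes but SLA-DMA step down from stage to stage, while the ovary lines are flatter.

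A step down at each stage, non-pregnant over early pregnant over late pregnant, was seen on the arrays labelled myometrium for 4 of 4 immune subunits, 16 of 33 constitutive subunits, 5 of 8 class I genes and 7 of 8 class II genes. Of all probe sets measured there 26% stepped down. In ovary the counts were 1 of 4, 2 of 33, 4 of 8 and 4 of 8, where 21.7% of all did. The step from non-pregnant to early pregnant on the arrays labelled myometrium held 5 genes at 2-fold or more lower and 0 higher, where 10.3% of all measured probe sets were that much lower and 8.76% higher. The 5 were PSME1 at 2.6-fold, SLA-3 at 2.52-fold, PSMB8 at 2.27-fold, PSMB10 at 2.07-fold and SLA-6 at 2.05-fold. As a share of the 53 genes that count is close to the background, and 3 of the 5 were among the 4 immune subunits. From early to late pregnant 3 genes were lower, SLA-DRA at 2.22-fold, PSMB8 at 2.17-fold and SLA-DQA1 at 2.08-fold, and 0 were higher, where the background was 5.62% lower and 5.87% higher.

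In ovary 0 of the 53 genes differed by 2-fold or more between any stages. The background was 2.15% lower and 2.45% higher from non-pregnant to early pregnant, 3.65% lower and 2.92% higher from non-pregnant to late pregnant, and 2.71% lower and 1.5% higher from early to late pregnant. The constitutive subunits shared small differences there: 31 of 33 read lower on the early pregnant than on the non-pregnant ovary array, and 30 of 33 read higher on the late pregnant than on the early pregnant one. Their medians were -0.37 and 0.24, against -0.02 and -0.04 over all measured probe sets. Of all measured probe sets 7848 of 15237 were lower in the first comparison and 6715 of 14775 higher in the second. Both comparisons use the same early pregnant array.

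Centring every array on its median log2 signal would shift all log2 ratios by the same amount within a comparison. The median over all probe sets stood at -0.15 from non-pregnant to late pregnant ovary, -0.12 from early to late pregnant ovary, and -0.11 in each comparison with the non-pregnant array labelled myometrium. It stayed within 0.03 of 0 in the other comparisons. Differences between the immune and constitutive classes do not depend on such a shift.

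The tissues were then compared at each stage. The immune subunits read higher on the non-pregnant array labelled myometrium than in non-pregnant ovary, with a median ovary minus myometrium log2 difference of -0.59 and 3 of 4 genes in that direction. In early pregnancy the median was -0.08. In late pregnancy it was 0.87, with 4 of 4 genes higher in ovary. For the class I genes the medians were -0.47, 0.20 and 0.12, with 4 of 8 genes higher in ovary in late pregnancy. For the class II genes the medians were -0.21, 0.44 and 0.93. The constitutive subunits had 0.15, 0.11 and 0.43. The direction of the median between tissues thus turned with stage for the immune subunits and for the class I and class II genes. It did not turn for the constitutive subunits. The same medians over all probe sets were not taken stage by stage, so a turn particular to these genes is not shown.

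**Figure D4:**
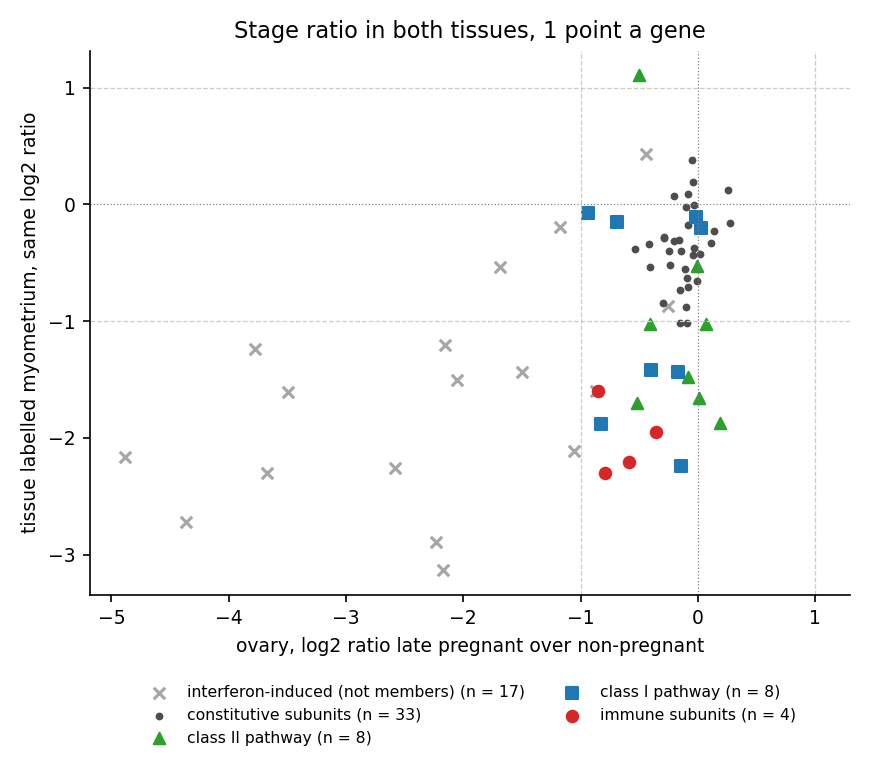
Log2 ratio of late pregnant over non-pregnant in ovary (horizontal) against the same ratio in tissue labelled myometrium (vertical), 1 point a gene and 1 array a side, with dashed lines at 2-fold. The immune subunits and 10 of the 16 presentation genes lie below the lower horizontal dashed line and right of the left vertical one, while most interferon-induced genes lie left of that vertical line.

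A difference between the tissues over all stages was tested with limma's additive fit of tissue and stage, with Benjamini-Hochberg adjustment over 15882 probe sets. In it 0 of the 53 genes passed an adjusted p of 0.05, where 5.07% of the tested probe sets did (451 higher in ovary and 354 lower there). Leaving out arrays moved the number of all probe sets called from 805 to between 16, without the early pregnant ovary array, and 2048, without both non-pregnant arrays. At an unadjusted p under 0.05 there were 5 genes, 9.43% of the 53, against 21.9% of all tested probe sets, and all 5 were higher in ovary. The lowest adjusted p was 0.0705, for SLA-DMA, with a log2 difference of 1.43 ± 0.32 (SE). Its mean was 7092 ± 1273 in ovary (SD over the 3 stages, which are not replicates) and 2753 in the tissue labelled myometrium, while its other probe set gave 0.40 ± 0.38 with a limma adjusted p of 0.587. Without a late pregnant array the brightest probe set of SLA-DMA passed, with a difference of 1.86. Leaving out the one of ovary or of myometrium gives that same estimate (limma adjusted p 0.0313 and 0.0195), since a stage with 1 array left says nothing of tissue.

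The other 4 were proteasome subunits. PSMB4 had a log2 difference of 0.64 (limma adjusted p 0.163), and without a non-pregnant array, of either tissue, it passed with 0.87 (0.0405 and 0.0409). PSMC1, an ATPase of the 19S cap, read 3334, 2990.3 and 3137 in ovary and 2057, 2121 and 2192 on the arrays labelled myometrium, a difference of 0.57 with no overlap (limma adjusted p 0.161). PSMC2 and PSMD11, both of the cap, had 0.49 and 0.48 (limma adjusted p 0.2 and 0.225). Toward the other tissue, the largest differences were -0.54 for PSME4 and -0.43 for TAPBP (limma adjusted p 0.348 and 0.387). By sign alone 43 genes were higher in ovary and 10 lower there, and the same split over all tested probe sets was not counted. The median was 0.22, against 0.01 over all tested probe sets.

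A stage difference averaged over both tissues, called shared here, was taken from the same fit. The fit takes it as shared and does not show that it is. No gene of the 53 and none of the 15882 tested probe sets passed limma's adjusted threshold in any of the 3 stage contrasts. Without the non-pregnant ovary array 1 gene passed, PSME1 from non-pregnant to late pregnant, but the non-pregnant stage is then the array labelled myometrium alone, and that contrast is not shared by the tissues. From non-pregnant to late pregnant, 9 of the 53 genes were lower at an unadjusted p under 0.05, which is 17%, where 3.72% of all tested probe sets were. All 9 had a limma adjusted p of 0.711. They were all 4 immune subunits, TAP1, SLA-2, SLA-3, SLA-DRA and PSMA2. All 9 were lower in both tissues, and by more on the arrays labelled myometrium. The log2 ratios in ovary and on those arrays were closest for PSMA2, at -0.41 and -0.54. They were furthest apart for SLA-3, at -0.14 and -2.24. The log2 difference was -1.55 ± 0.43 (SE) for PSMB8, -1.40 ± 0.43 for PSME1, -1.36 ± 0.36 for TAP1, -1.23 ± 0.30 for PSME2 and -1.15 ± 0.45 for PSMB10. From non-pregnant to early pregnant 2 genes were lower at that level, 3.77% against 2.38% of all. These were PSMA7, an alpha subunit, at -0.73 ± 0.19 and PSME2 at -0.91 ± 0.30 (limma adjusted p 0.822 for both). From early to late pregnant there were 0, against 1.13%, and no gene was higher at that level in any contrast. This fit uses the same arrays as the stage ratios above and is not independent of them.

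Genes that act beside these were counted from further lists, and between tissues none of their members passed the limma adjusted threshold. Of 29 genes of proteasome assembly and regulation, 9 had a probe set, and their median log2 ratio from non-pregnant to late pregnant was -0.54 on the arrays labelled myometrium and -0.21 in ovary. PAAF1, a chaperone of the 19S cap, read 969, 430 and 439 on the arrays labelled myometrium, and PSMG3, a chaperone of the 20S core, read 662, 241 and 353. These were the only 2 of the 9 at 2-fold or more in a stage comparison, and none was in ovary.

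Of 16 genes of peptide trimming, loading and class I quality control, 12 had a probe set. On the arrays labelled myometrium 3 were at 2-fold or more higher and 1 lower in late pregnancy than in non-pregnant tissue. TPP2, a cytosolic peptidase that trims proteasome products, read 387.5, 1235 and 1411 there, and HM13, the signal peptide peptidase, read 454, 992 and 1241. THOP1, a peptidase that destroys peptides in the cytosol, read 526, 266 and 129. None was at 2-fold in ovary.

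Of 10 endosomal enzymes and adaptors that prepare peptides for class II, 8 had a probe set. On the arrays labelled myometrium 5 of these were higher in late pregnancy than in non-pregnant tissue, each by 2-fold or more, and 3 were lower by less than 2-fold, with a median of 1.498 against -1.25 for the class II genes. CTSD, the protease cathepsin D, read 768, 2761 and 6054 there, and IFI30, the thiol reductase of class II compartments, read 2003, 5629 and 11065. CTSS, the protease cathepsin S, which removes the invariant chain, was among the 3 lower, with 6487, 6504 and 4241. In ovary CTSD read 2569, 1993 and 1905 and IFI30 read 3538, 2787 and 1863, and none of the 8 differed by 2-fold.

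Of 21 regulators of these genes, 14 had a probe set and 11 could be tested. On the arrays labelled myometrium 2 were at 2-fold or more lower and 0 higher from non-pregnant to late pregnant, with a median of -0.335. From non-pregnant to early pregnant 3 were lower and 2 higher at that level, and in ovary none was. RFXANK read 998, 410 and 655 on the arrays labelled myometrium, lowest in early pregnancy, and 937, 662 and 711 in ovary. IRF1, a transcription factor of class I and immunoproteasome genes, read 793, 511.5 and 349 on the arrays labelled myometrium and 436, 574 and 506 in ovary. IRF8, a factor of myeloid and B cells, read 415, 149.7 and 62.9 on the former, the last under the floor, and 280.3, 366 and 242.5 in ovary. CIITA, the master regulator of class II genes, read 86.1, 123 and 58.2 on the former and was near or under the floor on every array. IFNG, which encodes interferon gamma, read 74, 1719.6 and 64.8 on the arrays labelled myometrium and was under the floor on the other 5 arrays. SOCS1, an inhibitor of its signalling, read 66.2, 465 and 111 there.

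Interferon-induced genes outside the rule shared the order of the immune subunits over the arrays only in part. Of 23 listed, 17 had a probe set, and in ovary 14 of 17 were at 2-fold or more lower in late pregnancy than in non-pregnant tissue, with a median of -2.16, whereas 0 of the 4 immune subunits were. MX1, an antiviral GTPase, read 9325, 2155.5 and 453 in ovary and 1974, 1951 and 299.9 on the arrays labelled myometrium. On the latter 13 of 17 were at 2-fold or more lower from non-pregnant to late pregnant, with a median of -1.60. From non-pregnant to early pregnant 0 were at 2-fold or more lower and 2 at 2-fold or more higher. By sign 9 of 16 measured were lower and 7 higher, with a median of -0.03, against -1.11 for the immune subunits. Those 9 were lower again from early to late pregnant, and so stepped down at each stage as the immune subunits did. Of all probe sets measured there 26% stepped down. Whether the lists differ was not tested.

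Most measured T and NK cell markers were lower along with the immune subunits and class II genes on the arrays labelled myometrium. Of 9 measured T and NK cell markers 7 were at 2-fold or more lower from non-pregnant to late pregnant and 0 higher, with a median of -2.15. The summed signal of the 11 with a probe set was 3544, 1433 and 640 there and 1419, 1288 and 1187 in ovary. CD3E, a chain of the T cell receptor complex, read 581, 127 and 107. GNLY, a granule protein of NK cells, read 236, 199 and 159.6, and PRF1, the pore former perforin, was under the floor on all arrays. Of 8 B and plasma cell markers 1 was measured. It was JCHAIN, the joining chain of polymeric antibodies made by plasma cells, which read 6347, 1224 and 96.6.

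Other leukocyte lists were less uniform. Of 5 markers of all leukocytes 3 were at 2-fold or more lower on the arrays labelled myometrium, and their sum was 3742, 2738 and 2307 there and 3571, 2959 and 1598 in ovary. Of 9 measured macrophage and dendritic cell markers 5 were lower and 4 higher from non-pregnant to late pregnant on the former, with a median of -0.13. The sum of the 11 with a probe set was 9083, 10619 and 11481 there and 13788, 8749 and 7606 in ovary. The order on the arrays labelled myometrium rests on AIF1, a calcium-binding protein of macrophages, which read 1136.5, 6127 and 5016. Without it, a choice made after its values were seen, the sum was 7946, 4491 and 6465. The 11 luteal, granulosa and theca cell markers summed to 733, 7972 and 11802 on those arrays. That order rests on STAR and CYP11A1, and without them, again a choice made afterwards, the other 9 summed to 698, 896 and 443. The part of any of these cell types in the differences above was not tested.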

How the data were processed

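The authors deposited intensity values on a linear scale, 1 per probe set and array, which came from MAS5, per the submitters' processing notes; its version and settings are not given there. Each array's mean after trimming 2% of probe sets at both ends was 500.1, so the arrays had been scaled to a common level, and a change in total RNA cannot be seen. The table held 24123 probe sets, and 124 controls were left out. Names came from the platform annotation, which gave 10069 probe sets 1 symbol, 198 several and 13732 none.

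Signals under 81.7 were raised to it and log2 was taken. limma 3.58.1 in R 4.3.3 fitted tissue and stage additively to the 6 arrays with an intensity trend, 2 residual degrees of freedom and Benjamini-Hochberg adjustment over the 15882 probe sets that exceeded this floor on 2 or more arrays, and called adjusted p under 0.05. A stage effect that differs between tissues enters the residual of that fit. The arrays of a tissue differ in stage, so p-values measure the spread across these arrays, not animals, and the number of arrays limits the precision. Stage ratios within a tissue used probe sets that exceeded it on 1 or both arrays. Figures were drawn with matplotlib 3.10.9 in Python 3.11.15.

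Named array by array were the immune subunits, their counterparts and PSME3, and all class I and II genes. Other constitutive subunits were named when past the threshold or at 2-fold or more between stages (up to 4 per direction), and list members likewise (up to 3 between tissues and 2 between stages). PSME4, subunits with an unadjusted p under 0.05, the largest differences toward myometrium, and CIITA, CTSS and the marker genes given were named after their values were seen. The members and lists were chosen with earlier results of these data known. Alternatives were floors at the 25th (33.7) and 60th (246.2) percentile, a pseudocount of 16, quantile normalization, median centring, averaging all probe sets of a gene, no filter, no trend, no stage block, arrays left out, a 1.5-fold limit, and PSMB8 and PSMB10 against PSMB5, PSMB6 and PSMB7. No sequences were analysed here.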

Additional observations from a re-analysis of the deposited data

Results flagged for a closer look

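SLA-DMA, a chain of the class II peptide exchange factor, had opposite signs in the tissues from non-pregnant to late pregnant: its log2 ratio was -0.50 in ovary but 1.103 in the tissue labelled myometrium. SLA-DQA1, a class II alpha chain, did too, with 0.19 in ovary but -1.87 in the tissue labelled myometrium. Each value rests on 1 array a side, and neither difference between the tissues was tested. The other probe set of SLA-DMA had -0.51 and -1.95, so its sign did not differ between the tissues.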

How the results depend on the processing

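Of the 20 ratios recomputed from non-pregnant to late pregnant on the arrays labelled myometrium under 6 settings each, 105 values kept their direction within 1.5 times, 14 moved and 1 reversed, namely SLA-DMA at -0.42 when its probe sets were averaged. That setting also left 0 genes higher there. The separation of the immune from all 33 constitutive subunits held in that comparison under the 6 settings, and from non-pregnant to early pregnant 1 constitutive subunit crossed under quantile normalization. The median immune minus constitutive difference moved only from non-pregnant to early pregnant ovary, to -0.081 under quantile normalization and 0.145 for the counterparts alone.

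At 1.5-fold the counts were 3 lower and 2 higher from non-pregnant to early pregnant ovary, 6 lower to late pregnant, and 4 lower and 1 higher from early to late. On the arrays labelled myometrium they were 16 lower from non-pregnant to early pregnant, and 15 lower and 1 higher from early to late. Median centring left 3 genes lower from non-pregnant to early pregnant there. The 16 genes lower from non-pregnant to late pregnant there became 12 with median centring and 13 with probe sets averaged. They became 15 with quantile normalization or the pseudocount of 16, and 22 at 1.5-fold. Quantile normalization gave 1 lower in early pregnant ovary, and the floor at the 25th percentile or the pseudocount of 16 gave 1 lower in late pregnant ovary.

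Between tissues 1 gene, SLA-DMA, passed with no stage block (limma adjusted p 0.0344), and leaving out arrays gave 0 to 1. The gene was SLA-DMA without either or both late pregnant arrays and PSMB4 without either or both non-pregnant arrays. For the shared stage difference the range was 0 to 1, the 1 being PSME1 from non-pregnant to late pregnant without the non-pregnant ovary array, when that contrast rests on 1 non-pregnant array. The calls over all probe sets, 805, became 477 with the floor at the 60th percentile, 1214 with no stage block, 0 with no filter, and 16 to 2048 with arrays left out. The causes were not tested. Mean ratios over probe sets that include ones under the floor are drawn toward 0. The tissue fit pairs the arrays by stage, and the setting with no stage block is the unpaired fit.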

Other observations

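Some probe sets carry several symbols, all of the class I or class II region, and were outside the rule. One annotated to SLA-DRB1 and a second locus stood highest on the early pregnant array of both tissues, with 100.3, 614 and 246 in ovary and 118.5, 488 and 141.5 on the arrays labelled myometrium. The probe set of SLA-DRB1 alone read lowest of its ovary arrays there, with 1729, 1549 and 1739.5. A further probe set annotated to SLA-1 and a second locus read 56.9, 127 and 295.4 in ovary and 92, 19.5 and 37.4 on the arrays labelled myometrium.

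Among the 9 genes with several probe sets, 15 further probe sets were measured. From early to late pregnant ovary 13 of the 15 had the sign of the brightest one, and from non-pregnant to late pregnant on the arrays labelled myometrium 8 did. PSMC2 was a gene whose 2 further probe sets had the sign of the brightest in all 6 stage comparisons. Of the genes with 2-fold ratios, SLA-6, SLA-DRB1 and TAP1 had further probe sets under the floor on all arrays.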
